A study of Mus musculus with 12 samples.

Results

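The genes described here are the dual specificity phosphatases Dusp1, Dusp2, Dusp4, Dusp5, Dusp6 and Dusp10, the Sprouty genes Spry1 and Spry2 and the Spred genes Spred1 and Spred2. They were chosen by name as feedback genes of MAP kinase signalling, and make up 10 of the 22180 genes tested. Each was taken from its row of the array table, or, for Dusp6, from the brighter of 2 rows. Affymetrix Mouse Gene 2.0 ST arrays were used to measure RNA in CD4+ T cells from mouse spleen, sorted into regulatory cells that express Foxp3 (Foxp3+, Treg) and effector cells that do not (Foxp3-, Teff). All cells came from Foxp3.eGFP reporter mice, in which Foxp3-expressing cells carry GFP, on the C57BL/6 background and 8 weeks of age. Control Treg and control Teff cells were untreated and fresh. The anti-CD3-CD28 groups came from CD4+ cells cultured for 3 days with 2 µg/ml of each antibody, which engage the T cell receptor and its costimulator. The OX40L-JAG1 groups came from cultures of the same length with soluble OX40L at 5 µg/ml and JAG1 at 1 µg/ml, ligands of the receptor OX40 and of Notch, a treatment meant to expand Treg cells without the T cell receptor. Treg and Teff cells of a treatment were thus stimulated together as CD4+ cells and sorted afterwards.

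Each of the 6 groups had 2 arrays, called replicate 1 and replicate B, the latter after the letter in its label. No label says whether they are separate mice or cultures, so the spread between them may be technical. The spread behind each p-value was estimated per gene over all 6 groups together and moderated across genes. The OX40L-JAG1 Teff arrays therefore enter the p-values of the other comparisons as well. For Dusp1 the SE of a comparison of 2 groups was 0.36, and 0.14 without those arrays. Because the fresh controls skipped the culture, an effect of culture and one of the ligands or antibodies cannot be told apart against control, and both treatments are set against the same control arrays. In bulk RNA, fewer cells of a type and less RNA per cell cannot be told apart.

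ERK, JNK and p38 are MAP kinases, enzymes that each stand at the end of a kinase cascade. The ERK cascade in T cells runs from the receptor through Ras. MAP kinases are switched on by phosphorylation. Dual specificity phosphatases remove that phosphate, and many of their genes are themselves transcribed in response to MAP kinase signalling, which makes a negative feedback loop. Sprouty and Spred proteins act further up, at the level of Ras, and several of them are also induced by ERK. Their RNA is therefore often read as a trace of past MAP kinase activity, although the arrays measure RNA and not kinase activity.

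The sequences before the transcription starts of Dusp1 and Dusp5 are shown because these genes moved in opposite directions in anti-CD3-CD28 Treg cells and their upstream sequences hold different motifs. Each line gives the 250 bases before the start, 5′ to 3′ in the direction of transcription, with the motif in capitals. They are RefSeq sequences of the assembly GRCm38.p6, at chr17:26508473-26508722 on the minus strand for Dusp1 and at chr19:53528895-53529144 on the plus strand for Dusp5.
Dusp1: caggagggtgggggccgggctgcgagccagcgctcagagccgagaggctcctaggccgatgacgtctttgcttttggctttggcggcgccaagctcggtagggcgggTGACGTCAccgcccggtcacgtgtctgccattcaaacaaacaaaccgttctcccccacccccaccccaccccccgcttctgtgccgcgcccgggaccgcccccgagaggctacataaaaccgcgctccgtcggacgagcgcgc
Dusp5: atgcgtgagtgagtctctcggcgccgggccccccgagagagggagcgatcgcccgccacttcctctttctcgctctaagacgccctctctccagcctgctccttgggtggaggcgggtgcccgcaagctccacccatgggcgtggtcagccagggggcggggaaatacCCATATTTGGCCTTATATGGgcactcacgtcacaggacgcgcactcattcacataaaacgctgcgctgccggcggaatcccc
The Dusp1 window holds 1 cyclic AMP response element, TGACGTCA, from 143 to 136 bases before the start. The Dusp5 window holds 2 CArG boxes, the sequence class bound by serum response factor, which lie next to each other without overlap from 82 to 73 and from 72 to 63 bases before the start. The search covered both strands for 4 motifs, the cyclic AMP response element, the AP-1 site TGANTCA, the Ets site CCGGAAG and the CArG box. Among 32851 windows of the same length, 1.55% held the cyclic AMP response element, 6.75% the AP-1 site, 6.91% the Ets site and 1.47% a CArG box. Of the 10 genes, 9 had an entry, Dusp4 being the other, and in 7 of these none of the 4 motifs was found in the window. A match is a description of the sequence and was not linked to binding.

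Foxp3, the gene of the sorting reporter, had group means of 10.37 to 11.12 on the log2 intensity scale in the 3 Treg groups and of 5.65 to 6.58 in the 3 Teff groups. Both arrays of OX40L-JAG1 Teff cells differed from the rest: the SD over genes was 1.491 to 1.71 on them and 1.947 to 2.188 on the other 10 arrays, and their replicates correlated across genes at 0.881, against 0.984 to 0.994 in the other groups. Where leaving them out changed whether one of the 10 genes passed, this is said beside its value or in the counts. The summed linear intensity of 5 T cell markers was 14065 to 15064 in control Teff, 3471 to 5968 in OX40L-JAG1 Teff, 7483 to 7549 in anti-CD3-CD28 Teff, 11083 to 12552 in control Treg, 11263 to 11456 in OX40L-JAG1 Treg and 9803 to 10044 in anti-CD3-CD28 Treg cells. In anti-CD3-CD28 Teff cells 3 of these 5 markers, Cd3e, Cd4 and Cd5, were called lower than in control Teff cells, where 9.75% of all genes were. Cd3d went the other way, with a mean log2 intensity of 10.54 in anti-CD3-CD28 Teff against 9.75 in control Teff cells. The summed intensity of 8 neutrophil markers was 569 to 576 in control Teff, 3151 to 7204 in OX40L-JAG1 Teff, 146 to 153 in control Treg, 1277 to 1512 in OX40L-JAG1 Treg, 171 to 185 in anti-CD3-CD28 Teff and 244 to 261 in anti-CD3-CD28 Treg cells. Elane and Mpo, both on that list, had lower log2 means in OX40L-JAG1 Teff than in control Teff cells, at 6.59 against 7.65 and at 5.89 against 7.75. Basophil and mast cell and myeloid and dendritic sums were also higher in both OX40L-JAG1 groups than in their controls. The sum of 4 erythroid and platelet markers was higher than in control cells (123 to 128 in Teff, 115 to 118 in Treg) in all 4 cultured groups, at 298 to 982 in OX40L-JAG1 Teff, 459 to 580 in OX40L-JAG1 Treg, 434 to 444 in anti-CD3-CD28 Teff and 224 to 233 in anti-CD3-CD28 Treg cells. The part of such cells in the results below was not tested.

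**Figure D1:**
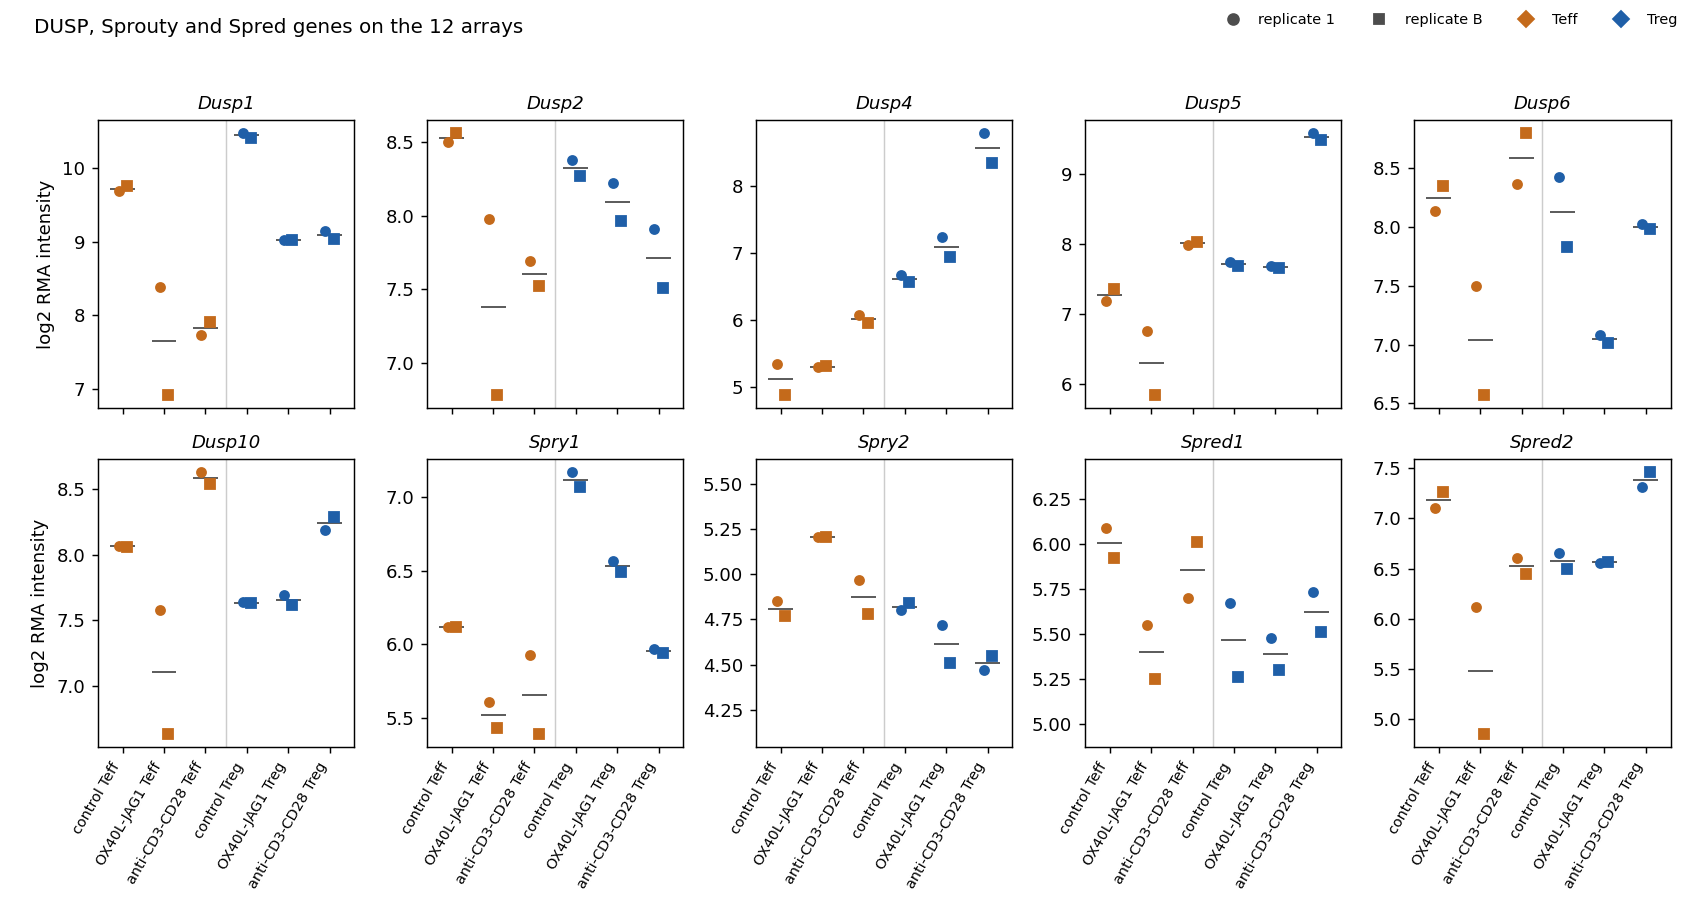
Log2 RMA intensity of the 10 genes on the 12 arrays, 1 panel per gene with its own vertical scale; circles are replicate 1, squares replicate B, lines the mean of the 2 arrays, orange Teff and blue Treg cells. Dusp4 and Dusp5 are highest in anti-CD3-CD28 Treg cells, Dusp1 and Spry1 in control Treg cells, and the 2 arrays of OX40L-JAG1 Teff cells lie far apart for several genes.

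Dusp4 encodes a nuclear phosphatase that acts on ERK and JNK. It was higher in Treg than in Teff cells in all 3 conditions, and rose further in Treg cells with anti-CD3-CD28. Its log2 intensity in replicates 1 and B was 6.67 and 6.56 in control Treg cells, 7.24 and 6.94 in OX40L-JAG1 Treg cells, and 8.78 and 8.34 in anti-CD3-CD28 Treg cells. The corresponding Teff values were 5.35 and 4.88, 5.30 and 5.31, and 6.08 and 5.95. Every Treg array thus read above every Teff array, and among Treg cells the 3 groups did not overlap. A lack of overlap between 2 groups of 2 arrays is common, here and for the genes below. In the 9 comparisons of 2 groups, 45.7% to 72% of all genes did not overlap. Against control Treg cells, Dusp4 was higher by 1.95 ± 0.22 (log2 change ± SE, a fold of 3.86, limma adjusted p = 0.000186) with anti-CD3-CD28, and its change with OX40L-JAG1 was 0.48 ± 0.22 (adjusted p = 0.515). The direct difference between the treatments in Treg cells was 1.47 ± 0.22 (adjusted p = 0.0021). In Teff cells it rose by 0.90 ± 0.22 (adjusted p = 0.0186) with anti-CD3-CD28, a call that was lost when control Teff replicate B or either anti-CD3-CD28 Teff array was left out, with an adjusted p of up to 0.208. The Treg minus Teff difference was 1.5 ± 0.22 (adjusted p = 0.00328) in control, 1.78 ± 0.22 (0.000225) in OX40L-JAG1 and 2.55 ± 0.22 (5.86e-05) in anti-CD3-CD28 cells. The control difference had an adjusted p of 0.0615 without control Teff replicate B.

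Dusp5 encodes a nuclear phosphatase specific for ERK. It stood highest in anti-CD3-CD28 Treg cells and did not move in Treg cells with OX40L-JAG1 beyond the spread. Its values were 7.74 and 7.69 in control Treg cells, 7.69 and 7.66 in OX40L-JAG1 Treg cells, and 9.58 and 9.48 in anti-CD3-CD28 Treg cells. In Teff cells they were 7.18 and 7.35 in control, 6.76 and 5.84 in OX40L-JAG1, and 7.99 and 8.02 in anti-CD3-CD28 cells. Both anti-CD3-CD28 groups lay above all other arrays, and control and OX40L-JAG1 Treg cells overlapped. With anti-CD3-CD28, Dusp5 rose in Treg cells by 1.81 ± 0.26 (a fold of 3.51, limma adjusted p = 0.000841) against control and by 1.85 ± 0.26 (adjusted p = 0.00123) against OX40L-JAG1. The OX40L-JAG1 change in Treg cells was -0.04 ± 0.26, with a 95% interval from -0.61 to 0.53. In Teff cells the anti-CD3-CD28 change was 0.74 ± 0.26 (adjusted p = 0.0823, or 0.00208 without the OX40L-JAG1 Teff arrays). Treg cells read above Teff cells by 1.52 ± 0.26 (adjusted p = 0.00386) after anti-CD3-CD28, while the control difference of 0.45 ± 0.26 did not pass (adjusted p = 0.444). Across the 12 arrays Dusp4 and Dusp5 had a Pearson correlation of 0.85, a description over arrays that share 6 groups.

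Dusp1 encodes a nuclear phosphatase that favours p38 and JNK and is a classic immediate early gene. It was highest in fresh cells and lower after either culture, in Treg and in Teff cells. Its values were 10.47 and 10.41 in control Treg cells, 9.02 and 9.02 in OX40L-JAG1 Treg cells, and 9.14 and 9.04 in anti-CD3-CD28 Treg cells. Both cultured Treg groups lay more than 1 log2 unit below fresh Treg cells, and close to each other. The Teff values were 9.68 and 9.75 in control, 8.39 and 6.92 in OX40L-JAG1, and 7.74 and 7.91 in anti-CD3-CD28 cells. Dusp1 fell in anti-CD3-CD28 Treg cells by 1.35 ± 0.36 (limma adjusted p = 0.0347) and in anti-CD3-CD28 Teff cells by 1.89 ± 0.36 (adjusted p = 0.00422). The Treg call was lost when any 1 of the 10 arrays outside the OX40L-JAG1 Teff group was left out, with an adjusted p of up to 0.193; with both OX40L-JAG1 Teff arrays left out, the adjusted p was 3.56e-05. In OX40L-JAG1 Treg cells the change was -1.42 ± 0.36, with an adjusted p of 0.0935, or of 0.000129 without the OX40L-JAG1 Teff arrays and 0.015 with quantile normalization. The 2 treatments differed in Treg cells by 0.07, with a 95% interval from -0.71 to 0.86. After anti-CD3-CD28, Dusp1 was higher in Treg than in Teff cells by 1.27 ± 0.36 (adjusted p = 0.0413), with an adjusted p of up to 0.216 when any 1 of the same 10 arrays was left out and of 0.079 with quantile normalization.

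The profile of Dusp1 across the 12 arrays was most like that of Fos, an immediate early transcription factor gene, at a Pearson correlation of 0.973 among 6996 candidate genes, followed by Ephx1 at 0.970. Fos fell by 1.79 ± 0.24 in OX40L-JAG1 Treg cells (limma adjusted p = 0.00289), by 1.46 ± 0.24 in anti-CD3-CD28 Treg cells (adjusted p = 0.0019) and by 3.03 ± 0.24 in anti-CD3-CD28 Teff cells (adjusted p = 1.64e-05). Hspa1a, an inducible heat shock gene, fell by 3.54 ± 0.23 in OX40L-JAG1 Treg cells (adjusted p = 4.59e-05). In the anti-CD3-CD28 groups its means, 3.38 in Treg and 3.65 in Teff cells, lay under 4.87, the lowest of the 12 array medians, and are not shown to be above background. Set against that value, Hspa1a was at least 64.4-fold lower than in control in Treg and at least 106.2-fold lower in Teff cells (adjusted p of the fit 5.33e-08 and 2.76e-08). In a list of 13 stress and tissue handling genes, 7 fell and none rose in OX40L-JAG1 Treg cells, 6 fell and none rose in anti-CD3-CD28 Treg cells, and 10 fell and none rose in anti-CD3-CD28 Teff cells. Over all genes tested, 0.559%, 1.97% and 9.75% fell and 0.996%, 8.08% and 5.44% rose in these comparisons. The summed linear intensity of the 13 genes was 12384 to 13364 in control Treg, 4343 to 4510 in OX40L-JAG1 Treg, 4522 to 5141 in anti-CD3-CD28 Treg, 16290 to 16326 in control Teff and 2872 to 2980 in anti-CD3-CD28 Teff cells. The part that handling of fresh cells had in the level of Dusp1 was not tested.

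**Figure D2:**
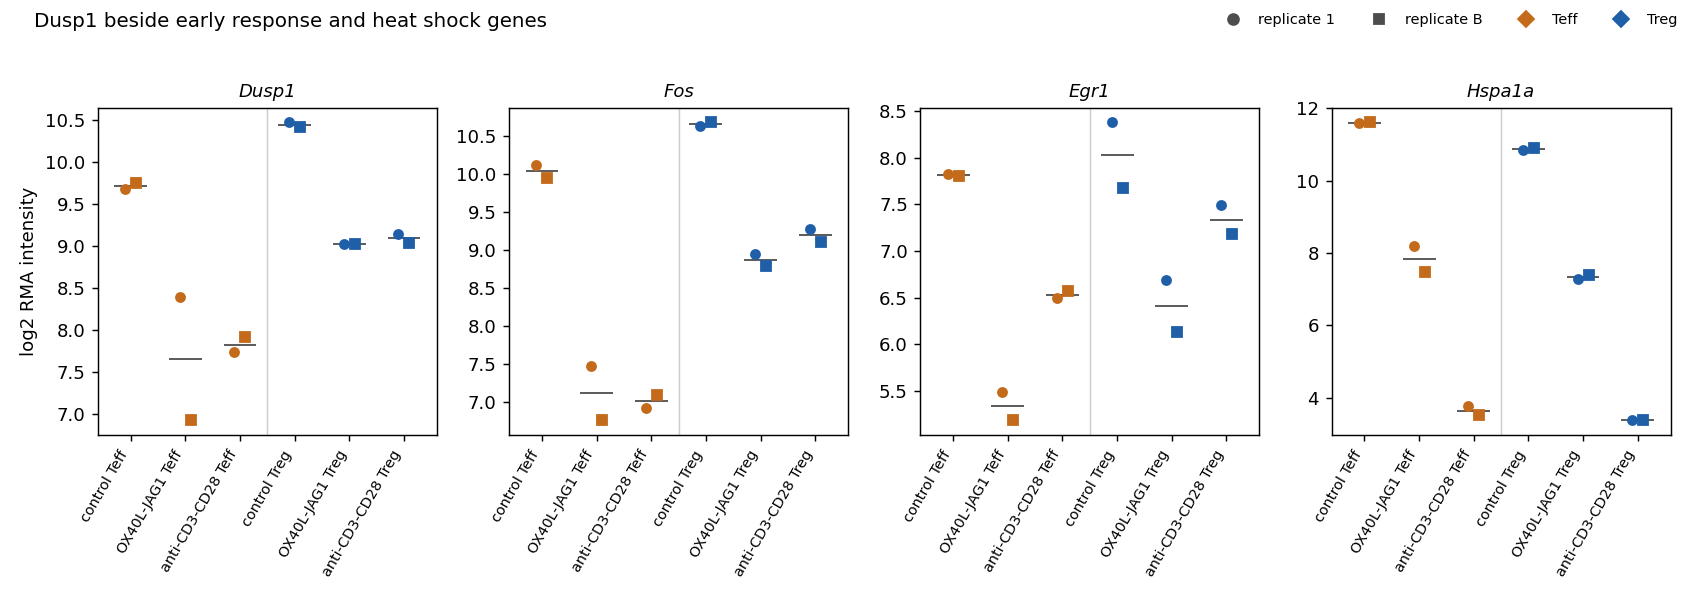
Log2 RMA intensity of Dusp1, Fos, Egr1 and Hspa1a on the 12 arrays, with circles for replicate 1, squares for replicate B and lines for the mean of 2 arrays; each panel has its own vertical scale. All 4 genes have their highest group means in the control cells, and Hspa1a is lowest in both anti-CD3-CD28 groups, with means of 3.65 in Teff and 3.38 in Treg cells.

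Dusp2 encodes a nuclear phosphatase that is abundant in activated haematopoietic cells. Its values were 8.38 and 8.27 in control Treg cells, 8.22 and 7.96 in OX40L-JAG1 Treg cells, and 7.91 and 7.51 in anti-CD3-CD28 Treg cells. In Teff cells they were 8.50 and 8.56 in control, 7.98 and 6.78 in OX40L-JAG1, and 7.69 and 7.52 in anti-CD3-CD28 cells. The anti-CD3-CD28 arrays read below the control arrays in both cell types, and neither change passed. Groups that do not overlap are common here, at 62.2% of all genes in the Treg and 63.6% in the Teff comparison. The changes were -0.62 ± 0.32 in Treg cells (limma adjusted p = 0.303, or 0.0247 without the OX40L-JAG1 Teff arrays) and -0.92 ± 0.32 in Teff cells (adjusted p = 0.0839, or 0.00185 without them). With quantile normalization the Treg change was -0.95 (adjusted p = 0.0428) and the Teff change -0.70 (adjusted p = 0.0965). The profiles closest to Dusp2 were those of Rps9, a ribosomal protein gene, at a correlation of 0.969, and Tbc1d10c at 0.958.

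Dusp6 encodes a cytoplasmic phosphatase specific for ERK and is widely used as a readout of ERK activity. In Treg cells it read 8.43 and 7.83 in control, 7.08 and 7.01 in OX40L-JAG1, and 8.03 and 7.98 in anti-CD3-CD28 cells. In Teff cells it read 8.14 and 8.35 in control, 7.50 and 6.57 in OX40L-JAG1, and 8.37 and 8.80 in anti-CD3-CD28 cells. Every OX40L-JAG1 array thus lay below every control and anti-CD3-CD28 array, in both cell types. The change in OX40L-JAG1 Treg cells was -1.08 ± 0.30 (limma adjusted p = 0.141), which passed when the OX40L-JAG1 Teff arrays were left out (adjusted p = 0.0103) and with quantile normalization (-1.14, adjusted p = 0.0481). Against control, the anti-CD3-CD28 changes were -0.12 ± 0.30 in Treg cells (95% interval from -0.79 to 0.54) and 0.34 ± 0.30 in Teff cells (from -0.32 to 1.01). Between the treatments in Treg cells, anti-CD3-CD28 read higher by 0.96 ± 0.30 (adjusted p = 0.106, or 0.00887 without the OX40L-JAG1 Teff arrays). In Teff cells it was higher than OX40L-JAG1 by 1.55 ± 0.30 (adjusted p = 0.00398), a difference of 0.76 (adjusted p = 0.0488) with quantile normalization. The OX40L-JAG1 Teff change from control went from -1.21 ± 0.30 (adjusted p = 0.00797) to -0.22 (adjusted p = 0.532) in the same way. A second row of Dusp6 was dim, with a mean of 3.39 over the 12 arrays against 7.84 for the row used.

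Dusp10 encodes a phosphatase that favours JNK and p38. Its values were 7.64 and 7.63 in control Treg, 7.69 and 7.62 in OX40L-JAG1 Treg, and 8.19 and 8.29 in anti-CD3-CD28 Treg cells. In Teff cells they were 8.07 and 8.06, 7.58 and 6.63, and 8.63 and 8.54 in the same order. The anti-CD3-CD28 arrays were above the controls in both cell types, and OX40L-JAG1 Treg cells overlapped with control Treg cells. The anti-CD3-CD28 changes, 0.60 ± 0.26 in Treg cells and 0.52 ± 0.26 in Teff cells, did not pass (limma adjusted p = 0.202 and 0.227), and did so without the OX40L-JAG1 Teff arrays (0.00864 and 0.0146). With quantile normalization they were 0.25 in Treg cells (adjusted p = 0.611) and 0.72 in Teff cells (adjusted p = 0.03). The closest profiles were those of Nucks1 at a correlation of 0.975 and Pstpip1 at 0.972.

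Spry1 encodes a Sprouty protein, an inhibitor of receptor signalling to Ras and ERK. It was highest in fresh Treg cells and fell in them with anti-CD3-CD28. Its values were 7.17 and 7.07 in control Treg, 6.57 and 6.49 in OX40L-JAG1 Treg, and 5.97 and 5.94 in anti-CD3-CD28 Treg cells. These 3 groups did not overlap. The same held for 45.7% of all genes between OX40L-JAG1 and control Treg cells. It held for 54.6% between the treated Treg groups and for 62.2% between anti-CD3-CD28 and control Treg cells. The difference between the treatments in Treg cells, -0.58 ± 0.20, did not pass (limma adjusted p = 0.157). In Teff cells Spry1 read 6.12 and 6.12 in control, 5.61 and 5.43 in OX40L-JAG1, and 5.93 and 5.39 in anti-CD3-CD28 cells. It fell by 1.17 ± 0.20 (limma adjusted p = 0.00331) in anti-CD3-CD28 Treg cells, a direction opposite to that of Dusp4 and Dusp5 in the same arrays. With OX40L-JAG1 its change in Treg cells was -0.59 ± 0.20 (adjusted p = 0.284, or 0.0859 without the OX40L-JAG1 Teff arrays). Fresh Treg cells read above fresh Teff cells by 1.00 ± 0.20 (adjusted p = 0.0199), a call lost when any 1 of the 4 control arrays was left out (adjusted p of up to 0.174). After anti-CD3-CD28 the Treg minus Teff difference was 0.29 ± 0.20 (adjusted p = 0.385).

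Spry2, the other Sprouty gene, was dim. Its 12 values ran from 4.47 to 5.21, and 9 of them lay below 4.87, the lowest of the 12 array medians. The table has no detection call, so levels this low are not shown to be above background. The OX40L-JAG1 Teff arrays, both at 5.21, were the highest, which gave a Treg minus Teff difference of -0.59 ± 0.18 with OX40L-JAG1 (limma adjusted p = 0.0204), the one place where Spry2 passed. That call was lost with a common median (adjusted p = 0.108), with quantile normalization (adjusted p = 0.0874) and without OX40L-JAG1 Treg replicate B. Spry2 changed by -0.31 ± 0.18 in anti-CD3-CD28 Treg cells (adjusted p = 0.351).

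Spred1 and Spred2 encode relatives of Sprouty that recruit neurofibromin, which switches Ras off. Spred1 ran from 5.25 to 6.09 over the 12 arrays, and in Treg cells its changes were -0.08 ± 0.22 with OX40L-JAG1 and 0.15 ± 0.22 with anti-CD3-CD28, with 95% intervals from -0.56 to 0.40 and from -0.32 to 0.63. Spred2 varied more. In Treg cells it read 6.66 and 6.50 in control, 6.56 and 6.57 in OX40L-JAG1, and 7.31 and 7.46 in anti-CD3-CD28 cells. In Teff cells it read 7.10 and 7.26, 6.12 and 4.85, and 6.61 and 6.45 in the same order. With anti-CD3-CD28 the Treg arrays lay above their controls and the Teff arrays below theirs. These changes were 0.80 ± 0.32 in Treg cells (limma adjusted p = 0.164, or 0.00247 without the OX40L-JAG1 Teff arrays) and -0.65 ± 0.32 in Teff cells (adjusted p = 0.221, or 0.00671 without them). With quantile normalization they were 0.47 (adjusted p = 0.764) and -0.39 (adjusted p = 0.746). The closest profiles were those of Sfxn1 and Osbpl2, both at a correlation of 0.988.

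**Figure D3:**
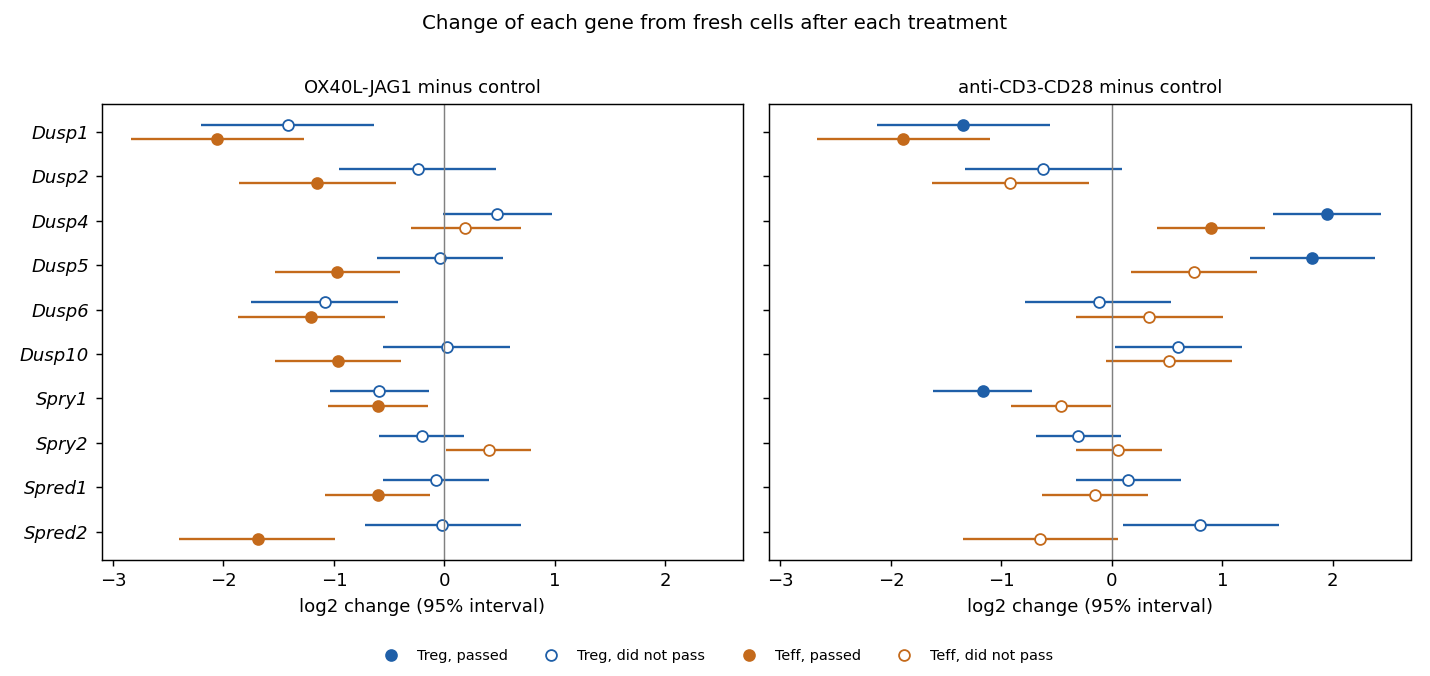
Log2 change of each gene from fresh control cells with OX40L-JAG1 (left) and with anti-CD3-CD28 (right), blue for Treg and orange for Teff cells; lines are 95% intervals of the limma fit, and filled points have an adjusted p under 0.05. In anti-CD3-CD28 Treg cells Dusp4 and Dusp5 lie above 0 and Dusp1 and Spry1 below, while with OX40L-JAG1 no Treg point is filled.

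As a group, the 10 genes did not move one way in Treg cells. With anti-CD3-CD28, Dusp4 and Dusp5 rose and Dusp1 and Spry1 fell against control; over all genes tested, 8.08% rose and 1.97% fell. The median change of the 10 genes was 0.02, beside -0.05 over all genes. When the OX40L-JAG1 Teff arrays were left out, 7 of the 10 passed, where 21.5% of all genes did, and Dusp2 joined the falls and Dusp10 and Spred2 the rises. With quantile normalization 5 of the 10 passed, 2 higher and 3 lower, against 6.88% of all genes. With OX40L-JAG1, limma called 0 of the 10 in Treg cells, where 0.996% of all genes tested rose and 0.559% fell. At an unadjusted p under 0.05, 3 (Dusp1, Dusp6 and Spry1) were lower. The share of all genes at that threshold was not counted. Dusp1 and Dusp6 passed, both lower, when either or both OX40L-JAG1 Teff arrays were left out; with both out, 5.41% of all genes passed. Between the treatments in Treg cells, Dusp4 and Dusp5 were higher with anti-CD3-CD28 and none of the 10 was lower, against 4.73% higher and 1.18% lower over all genes. In that comparison 5 of the 10 were called without the OX40L-JAG1 Teff arrays, against 13.9% of all genes.

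In Teff cells with anti-CD3-CD28, Dusp4 rose and Dusp1 fell, against 5.44% of all genes higher and 9.75% lower. The count was 1 without control Teff replicate B or either anti-CD3-CD28 Teff array. It was 6 without the OX40L-JAG1 Teff arrays, 3 in each direction, against 28.9% of all genes, and with quantile normalization 4 passed, 3 higher and 1 lower, against 11.6%. In OX40L-JAG1 Teff cells 8 of the 10 genes read lower than in control Teff cells, all but Dusp4 and Spry2, against 20.0% of all genes higher and 26.9% lower. The median change of the 10 genes was -0.96, beside 0.177 over all genes, and -0.26, beside -0.003, with quantile normalization. With quantile normalization 2 of these calls remained, Dusp1 at -1.01 and Spred2 at -1.52, against 21.7% of all genes called, and Dusp10 changed sign to 0.05. Of the 10 genes, 2 passed without control Teff replicate B, 5 without OX40L-JAG1 Teff replicate B and 4 without control Teff replicate 1. Between the treatments in Teff cells, Dusp4, Dusp5, Dusp6, Dusp10 and Spred2 were higher with anti-CD3-CD28 and none was lower, against 18.9% higher and 9.15% lower over all genes. The Spred2 call was lost with quantile normalization (limma adjusted p = 0.14) and in 9 of the 12 fits with an array left out. Its difference ran from 0.41 to 1.68 over those fits. The Dusp4 call was lost in 4 of them, those without an anti-CD3-CD28 Teff or a control Treg array. For counts with an array left out, the share of all genes was not counted.

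Between the cell types, Dusp4 and Spry1 were higher in fresh Treg than in fresh Teff cells and none of the 10 was lower, against 1.34% higher and 2.51% lower over all genes. Without control Teff replicate B none of the 10 passed, and without any other 1 of the control arrays 1 did. The count was 4 without the OX40L-JAG1 Teff arrays, with Dusp1 higher and Spred2 lower in Treg cells as well, against 14.5% of all genes. After anti-CD3-CD28, Dusp1, Dusp4 and Dusp5 were higher in Treg cells and none was lower, against 9.03% higher and 2.89% lower over all genes. There 4 passed without the OX40L-JAG1 Teff arrays, against 28.7% of all genes; with quantile normalization Dusp4 and Dusp5 were higher and Dusp6 was lower, against 5.03% of all genes called. After OX40L-JAG1, Dusp1, Dusp4, Dusp5, Spry1 and Spred2 were higher and Spry2 lower in Treg cells, against 24.6% higher and 16.5% lower over all genes. The median difference of the 10 genes was 0.86, beside -0.142 over all genes. With quantile normalization the calls became 2 higher, Dusp4 and Spry1, and 1 lower, Dusp6, against 18.1% of all genes called. Without OX40L-JAG1 Treg replicate B, 3 of the 10 passed.

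Whether a treatment changed a gene differently in the 2 cell types was tested as the Treg change minus the Teff change. For OX40L-JAG1, 1 of the 10 genes passed, Spred2, at 1.68 ± 0.45 (limma adjusted p = 0.0172), where 31.5% of all genes passed. Spred2 changed by -0.02 ± 0.32 in Treg and by -1.69 ± 0.32 in Teff cells. The call was lost with quantile normalization (adjusted p = 0.206) and without control Teff replicate B, control Treg replicate B or OX40L-JAG1 Treg replicate B. For anti-CD3-CD28, limma called 0 of the 10 at an adjusted p under 0.05, where 13.1% of all genes were called. At an unadjusted p under 0.05 there were 4, a threshold at which the share of all genes was not counted. These were Dusp4 at 1.05 ± 0.32 (adjusted p = 0.0514), Dusp5 at 1.07 ± 0.37 (adjusted p = 0.078), Spred2 at 1.45 ± 0.45 (adjusted p = 0.0579) and Spry1 at -0.70 ± 0.29 (adjusted p = 0.134). Without the OX40L-JAG1 Teff arrays Dusp4, Dusp5 and Spred2 passed, each with the more positive change in Treg cells (adjusted p = 0.0168, 0.0023 and 0.000564), where 31.0% of all genes passed.

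Other genes of the pathway were taken from lists put together by function. Of 4 further MAP kinase phosphatases, only Dusp16, which favours JNK and p38, passed in anti-CD3-CD28 Treg cells, at 1.70 ± 0.25 (limma adjusted p = 0.00109), and of 9 atypical dual specificity phosphatases only Dusp22 did, at 1.34 ± 0.25 (adjusted p = 0.005). In Teff cells with anti-CD3-CD28 the 1 of the 4 that passed was Dusp7, a cytoplasmic ERK phosphatase, which fell by 1.29 ± 0.20 (adjusted p = 0.00139) and is named after its values were seen. Spry3, Spry4 and Spred3 passed in neither comparison. In OX40L-JAG1 Treg cells limma called 0 of these 16 genes, and 1 of them, the atypical phosphatase gene Dusp3, named after its values were seen, was higher at an unadjusted p under 0.05 but lay below the lowest array median on all 12 arrays. Over all genes, 8.08% rose and 1.97% fell in anti-CD3-CD28 Treg, and 5.44% rose and 9.75% fell in anti-CD3-CD28 Teff cells. In OX40L-JAG1 Treg cells 0.996% of all genes rose and 0.559% fell, and the share at the unadjusted threshold was not counted.

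Upstream of the phosphatases, 20 genes of the Ras and ERK pathway were analysed. In anti-CD3-CD28 Treg cells 6 rose and none fell, against 8.08% higher and 1.97% lower over all genes. The largest rises were Map2k1, the kinase that activates ERK, at 1.08 ± 0.18 (limma adjusted p = 0.00209), Sos1, a Ras activator, at 0.94 ± 0.22 (adjusted p = 0.0215), and the scaffold gene Ksr1 at 0.92 ± 0.23 (adjusted p = 0.0251). In anti-CD3-CD28 Teff cells 1 rose, Map2k1 at 0.90 ± 0.18 (adjusted p = 0.00535), and 7 fell, Sos1 among them at -1.04 ± 0.22 (adjusted p = 0.00888), against 5.44% higher and 9.75% lower over all genes. With quantile normalization these counts were 2 higher in Treg cells, and 1 higher and 4 lower in Teff cells, with the calls of Sos1 in both cell types and of Ksr1 lost, while 10 were higher in Treg cells when the OX40L-JAG1 Teff arrays were left out. Of all genes, 6.88% in Treg and 11.6% in Teff cells were called with quantile normalization, and 21.5% in Treg cells without those arrays. In OX40L-JAG1 Treg cells limma called 0 of the 20, where 0.996% of all genes rose and 0.559% fell. At an unadjusted p under 0.05, 2 of the 20 were higher, a threshold at which the share of all genes was not counted. Of 14 JNK and p38 pathway genes, 4 rose in anti-CD3-CD28 Treg cells and none fell, where 8.08% of all genes rose and 1.97% fell. The largest of these rises were Map2k3 at 1.33 ± 0.22, Map3k1 at 1.18 ± 0.21 and Mapkapk2 at 1.11 ± 0.26 (limma adjusted p = 0.00256, 0.00392 and 0.0198). With quantile normalization 2 of these calls remained, Map2k3 and Map3k1. With OX40L-JAG1 limma called 0 of the 14 in Treg cells, and 4 had an unadjusted p under 0.05, again without a counted share of all genes. Quantile normalization called 1, Mapk11, lower.

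Of 14 genes known to be transcribed in response to ERK, some rose and others fell in Treg cells after each treatment. In anti-CD3-CD28 Treg cells 2 rose, Ier3 by 2.38 ± 0.30 (limma adjusted p = 0.000396) and the AP-1 gene Fosl2 by 2.17 ± 0.17 (adjusted p = 1.37e-05), and 3 fell, Fos, Fosb and Egr2, against 8.08% higher and 1.97% lower over all genes. In OX40L-JAG1 Treg cells 1 rose, Fosl2 by 0.90 ± 0.17 (adjusted p = 0.0224), and 5 fell, against 0.996% higher and 0.559% lower over all genes. The largest falls there were Fos, Egr1 at -1.62 ± 0.27 (adjusted p = 0.0108) and Fosb at -1.61 ± 0.22 (adjusted p = 0.0034). With quantile normalization none rose and 4 fell in OX40L-JAG1 Treg cells (Fos, Fosb, Egr1 and Myc), so that the calls of Fosl2, Egr3 and Phlda1 were lost. When both OX40L-JAG1 Teff arrays were left out 8 fell and 1 rose, where 5.41% of all genes passed. Fosl2 was higher with anti-CD3-CD28 than with OX40L-JAG1 in Treg cells by 1.27 ± 0.17 (adjusted p = 0.000928). Fos, Egr1, Junb and Ier2 stand on the list of handling genes as well, whose summed level fell in the same comparisons.

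**Figure D4:**
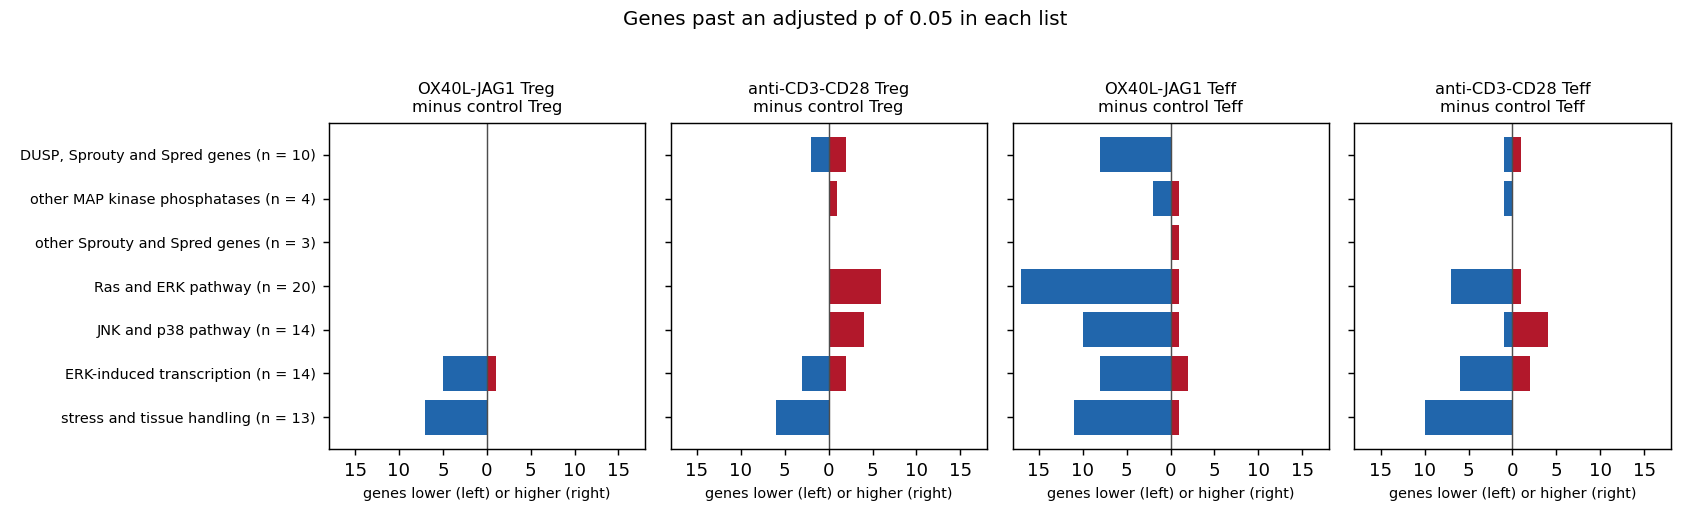
Number of genes in each list with an adjusted p under 0.05 in the limma fit, lower to the left in blue and higher to the right in red, in the 4 comparisons with fresh control cells; the number measured is beside each list name. In anti-CD3-CD28 Treg cells 6 of 20 Ras and ERK pathway genes are higher, against 8.08% of all genes. In OX40L-JAG1 Treg cells the calls among the lists drawn are in the ERK-induced and the handling lists, while the OX40L-JAG1 Teff panel rests on the arrays that stood apart.

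The nearest profiles of the genes that moved with anti-CD3-CD28 are given as descriptions over 12 arrays that share 6 groups. Over the 10 arrays without OX40L-JAG1 Teff cells, the 16 correlations with nearest profiles ran from 0.894 to 0.988. Dusp4 was closest to Nrbp2 at a correlation of 0.965 and Tiam1 at 0.963, Dusp5 to Crmp1 at 0.987 and to Ncaph, a condensin subunit gene of mitotic chromosomes, at 0.982. Spry1 was closest to Sdhaf1 and Pou2f2, both at 0.951. Dusp6, with its low in both OX40L-JAG1 groups, was closest to Nkg7 at 0.925 and Nasp at 0.920, the lowest likeness among the 8 genes whose group means spanned at least 1 log2 unit.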

How the data were processed

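Total RNA from 12 sorted samples was measured on 12 arrays. The deposited values are log2 intensities that the authors made with RMA, per the submitters' processing notes, its version being not given in the sources used here. No further normalization was applied. Of 41345 rows, 23521 had 1 gene symbol, and the brightest row per gene left 22180 genes. All 6 groups and 12 arrays entered a single linear model in limma 3.58.1 (R 4.3.3, with 6 residual degrees of freedom), which gave 9 comparisons and 2 interactions. Adjusted p-values are Benjamini-Hochberg values over all genes, two-sided, and a gene passed, rose or fell at under 0.05. The procedure was tested on simulated data in which a gene had the same spread in every group. That test therefore did not cover the wider spread of the OX40L-JAG1 Teff arrays.

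Named genes were the 10 genes, up to 3 called genes of each list with the largest change in either Treg comparison with control, the 2 closest profiles of each of the 10 whose group means spanned at least 1 log2 unit, and Foxp3 and Hspa1a. The genes and lists were chosen with earlier results of these data known. Alternatives were the replicate block, quantile normalization, a common median, dim genes left out, trend and robust shrinkage, the mean of a gene's rows, each array left out, and the OX40L-JAG1 Teff arrays left out. Nothing in the sources used here names a batch.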

Additional observations from a re-analysis of the deposited data

Results flagged for a closer look

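Spred2 is listed because its OX40L-JAG1 change differed between the cell types by a test of the difference itself: the Treg change minus the Teff change was 1.68 ± 0.45 on the log2 scale (limma adjusted p = 0.0172). The 2 OX40L-JAG1 Teff arrays read 6.12 in replicate 1 and 4.85 in replicate B. The value was 2.31 without replicate 1 and 1.04 without replicate B of that group, the highest and lowest of the values with an array left out. The call was lost with quantile normalization (limma adjusted p = 0.206). It was also lost without control Teff replicate B, control Treg replicate B or OX40L-JAG1 Treg replicate B. Over all genes tested, 31.5% passed this test.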

How the results depend on the processing

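Of 110 values (10 genes in 11 comparisons), 33 passed. With the replicate block all 33 passed and 1 more did, Dusp4 in the anti-CD3-CD28 interaction; deviations of same-named replicates correlated from -0.0693 to 0.182 over 15 pairs of groups, so no pairing was taken from the names. The same 33 passed with dim genes left out and with trend and robust shrinkage, 32 with a common median or the mean of all rows, 20 with quantile normalization, and 20 to 33 with an array left out. Without the OX40L-JAG1 Teff arrays all 13 that could be refitted passed and 18 more did. With each array left out, the number of the 10 genes called ran from 0 to 2 for OX40L-JAG1 Treg against control, 3 to 7 for anti-CD3-CD28 Treg against control, 2 to 5 between the treated Treg groups, 2 to 8 for OX40L-JAG1 Teff and 1 to 6 for anti-CD3-CD28 Teff against control, 3 to 8 between the treated Teff groups, 0 to 4 between the control groups, 3 to 8 between the OX40L-JAG1 groups, 2 to 4 between the anti-CD3-CD28 groups, 0 to 6 for the OX40L-JAG1 and 0 to 3 for the anti-CD3-CD28 interaction; a lone array left in a group is assumed to vary like the others. Quantile normalization called 2, 2, 4, 3 and 0 genes in OX40L-JAG1 Treg and OX40L-JAG1 Teff against control, anti-CD3-CD28 Teff against control, between the OX40L-JAG1 groups and in the OX40L-JAG1 interaction. Without the OX40L-JAG1 Teff arrays 2, 7, 5, 6, 4 and 3 were called in the 2 Treg comparisons with control, between the treated Treg groups, in anti-CD3-CD28 Teff against control, between the control groups and in the anti-CD3-CD28 interaction. In the OX40L-JAG1 and anti-CD3-CD28 interactions, 3 and 3 were called with a common median and 2 and 2 with dim genes left out, and 1 in the latter with trend and robust shrinkage or the replicate block. Under the settings other than an array left out, 23 of the 110 values changed sign, 20 of them with quantile normalization, and 1 of the 23 had passed. Where the value passed as reported or after the change, signs changed for Dusp10 in OX40L-JAG1 Teff against control (0.05, quantile), Dusp6 between the OX40L-JAG1 groups (-0.86, quantile) and Dusp1 between the treated Teff groups (-0.57, adjusted p = 0.0291, without OX40L-JAG1 Teff replicate B, to 0.91 without replicate 1); the cause was not tested. The share of all genes called was not counted with a single array left out, so the counts of the 10 genes under those settings have no such share beside them. The number of arrays limits the precision.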
